A study of Saccharomyces cerevisiae with 2 samples.

Results

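The vacuole of *S. cerevisiae* is the acidic compartment in which proteins, peptides and sugars are broken down, and the 9 genes described here encode 7 of its hydrolases and 2 small protein inhibitors of its proteases. They were chosen by name from the deposited table: PEP4, PRB1, PRC1, CPS1, APE1, APE3, AMS1, PAI3 and PBI2. Each was found as 1 mRNA feature among 5995 mRNA features and 6420 features in all. RNA was sequenced from cdc55Δ cells, which lack the B55δ-type regulatory subunit of protein phosphatase 2A, and from WT cells of the same haploid BY4741 strain, with 1 library for each. Both cultures had been incubated for 6 h at 30 °C without shaking in YPD20 medium, which holds 20% glucose. The libraries summed to 30133454 counts in cdc55Δ and 33233285 counts in WT. CDC55 itself had 1 count in cdc55Δ and 2614 counts in WT. Its scaled count, with nothing added to the counts, was 2326-fold lower in cdc55Δ (95% interval 417 to 91905). The mating pheromone gene MFA1, which cells of the BY4741 mating type express, had 545 counts in cdc55Δ and 1549 counts in WT.

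Each difference below compares these libraries only. With 1 library for each strain there is no replicate check, no test was possible, and no p-value is given. The values come from whole cultures, so a different level in every cell and a different share of cells in some growth state cannot be told apart. Log2 fold changes are cdc55Δ over WT, from counts scaled by TMM with 0.5 added to each. The 95% intervals cover counting error alone.

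Most vacuolar proteases are made as inactive precursors. Pep4p (proteinase A) cuts the precursors of the others inside the vacuole, and Prb1p (proteinase B) completes several of these steps. Most reach the vacuole through the secretory route, whereas Ape1p and Ams1p are packed from the cytoplasm into vesicles of the cytoplasm-to-vacuole targeting (Cvt) pathway. The inhibitors Pai3p and Pbi2p lie in the cytoplasm, and each can bind its own protease. In yeast, many of these genes are known for higher expression when glucose or nitrogen runs short.

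Short stretches upstream of the genes are shown first, because the members differ in which stress-related motif they carry. Windows of 500 bases before each start codon were read from the R64 assembly of S288C. The annotated genes begin at the start codon, so a window also spans the leader of the mRNA. It can also reach into the next gene upstream. Searched on both strands were AGGGG, the stress response element (STRE) bound by Msn2p and Msn4p, AGGGAT, the core of the post-diauxic shift (PDS) element bound by Gis1p, and GATAAG, a site of GATA factors. Each stretch of 30 bases is written 5′ to 3′ on the strand of the gene, with the STRE in capitals, or for AMS1 the PDS core. CCCCT and ATCCCT are the same motifs on the other strand. Not printed are the STRE stretches of PRC1 and APE3, with log2 fold changes of 0.26 and 0.15, and the farther ones of PAI3.
AMS1 (chrVII:210236-210265, plus strand): agcgcgagggtaATCCCTaccctaactcgt
APE1, farther match (chrXI:247905-247934, minus strand): ggaaaaacaactAGGGGtgatgctgttttg
APE1, nearer match (chrXI:247809-247838, minus strand): atagttgacacaCCCCTtaatcgttccatt
PEP4 (chrXVI:261267-261296, minus strand): gtcgatggattaAGGGGcggaggcggccct
PRB1 (chrV:42050-42079, minus strand): gatgaatataaaAGGGGgccaatgttacgt
PAI3, nearest match (chrXIII:610477-610506, minus strand): gtcgggaatctcAGGGGcgaccgcccccgg
PBI2 (chrXIV:605211-605240, plus strand): ggggcgggaaaaAGGGGgcatatcagagca
CPS1 (chrX:97573-97602, plus strand): gccttttattttCCCCTttgggcaaaatac

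The STRE letters were found upstream of 8 of the 9 members, and of 34.1% of the 6000 windows of this length upstream of nuclear protein-coding genes. In the nearest 250 bases they were found for 7 of the 9, and for 18.8% of 6001 windows. AMS1 was the member without them, and it was also the member with the largest difference between the libraries. CPS1, the only member that was lower in cdc55Δ, had a match 152 bases before its start codon. PAI3 had 3 matches, APE1 and PRC1 had 2 each, and the other members with a match had 1. The PDS core was found upstream of AMS1, 168 bases before the start codon, and of APE1, 496 bases before it, and of 15.4% of all windows. The next annotated gene upstream of APE1, YKL102C, lies 379 bases away and had only 17 counts in cdc55Δ and 14 in WT. By this annotation the APE1 match is not in the gap between the genes. GATAAG was found for 6 of the 9 members and for 22.8% of all windows. Its 2 matches upstream of CPS1 share a base, and its match upstream of APE1 overlaps the PDS core and also lies beyond that gap. These matches describe letters in the reference sequence. Binding was not measured, and a relation between the matches and the log2 fold changes was not tested.

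**Figure D1:**
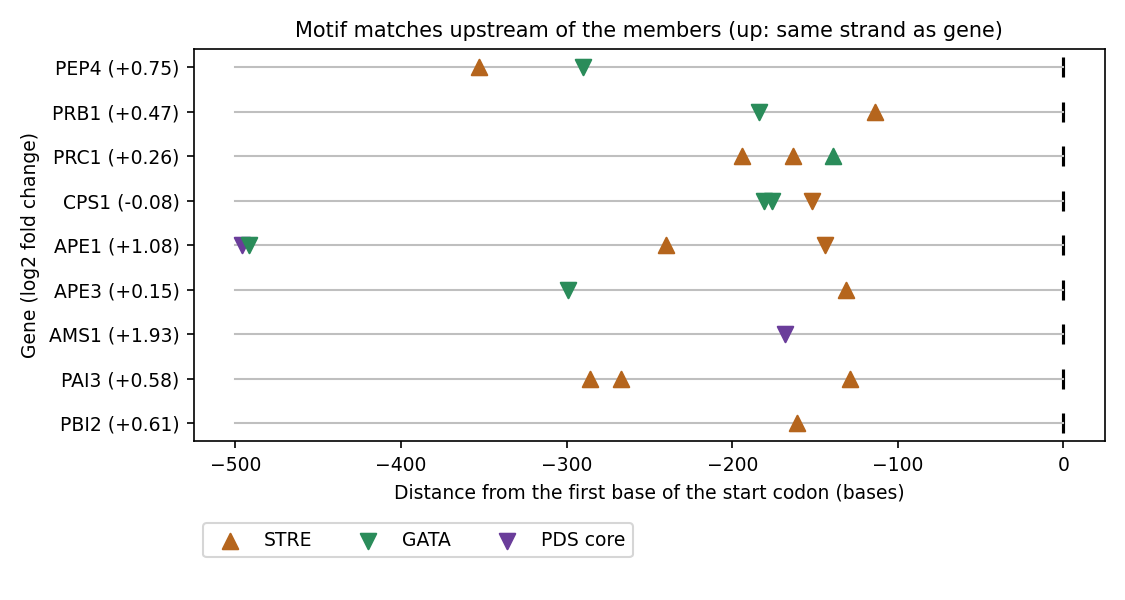
Motif matches in the 500 bases before the start codon of each member, with the distance from the start codon in bases on the horizontal axis and 1 row per gene, labelled with its log2 fold change of cdc55Δ over WT. Triangles point up for a match on the strand of the gene and down for one on the other strand. The row of AMS1 holds a PDS core and no STRE.

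The members differed widely in level. Levels are given as the deposited RPKM values (reads on a feature, divided by its length in kilobases and by the total counts of the library in 1000000s). APE3, which encodes aminopeptidase Y, was the most abundant, at 710 RPKM in cdc55Δ and 652 RPKM in WT, with 202 mRNA features above it in cdc55Δ and 209 in WT. AMS1 was the least abundant, at 18.5 RPKM in cdc55Δ and 4.93 RPKM in WT. For comparison, the median mRNA feature had 32.4 RPKM in cdc55Δ and 32.5 RPKM in WT. AMS1 and PAI3 were below this median in both libraries, and APE1, at 59.4 RPKM in cdc55Δ and 28.7 RPKM in WT, was above it in cdc55Δ only.

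The order of levels was not the same in the libraries. In cdc55Δ it ran APE3, PEP4, PRC1, PBI2, CPS1, APE1, PRB1, PAI3 and AMS1. In WT it ran APE3, PRC1, PEP4, CPS1, PBI2, PRB1, APE1, PAI3 and AMS1. PEP4 stood 1.33 times above PRC1 in cdc55Δ (95% interval 1.31 to 1.36), whereas PRC1 stood 1.06 times above PEP4 in WT (1.03 to 1.08). PBI2 stood 1.31 times above CPS1 in cdc55Δ (1.23 to 1.40), and CPS1 stood 1.23 times above PBI2 in WT (1.14 to 1.32). The neighbours APE1 and PRB1 did not differ beyond counting error in cdc55Δ, with a ratio of 1.01 (0.96 to 1.06), while in WT PRB1 was 1.51 times above APE1 (1.42 to 1.61). All other neighbours in either order differed beyond counting error. An effect of gene length on these levels was not tested.

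**Figure D2:**
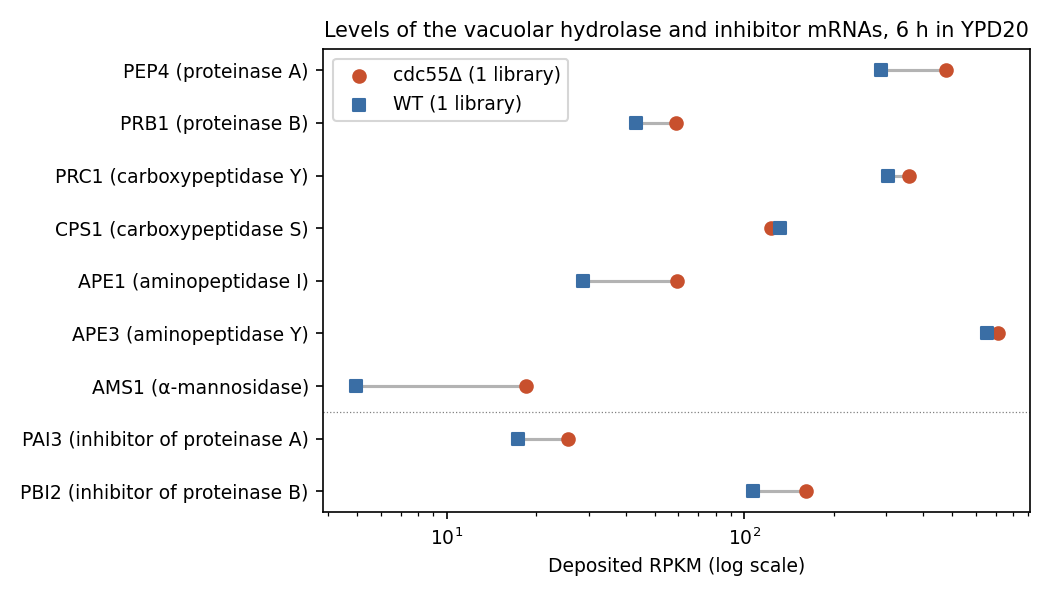
Deposited RPKM of the 9 members on a log scale, with 1 row per gene, circles for the cdc55Δ library and squares for the WT library. Levels reach from 4.93 RPKM for AMS1 in WT to 710 RPKM for APE3 in cdc55Δ, and the circle lies right of the square for every member except CPS1.

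Of the 9 members, 8 were higher in cdc55Δ, against 50.4% of the 5705 features that averaged 50 or more normalized counts over the libraries. All 9 members passed this minimum. At least 2-fold higher were 2 members, AMS1 and APE1, against 1.91% of all features, and none of the 9 was at least 2-fold lower, against 1.03% of all features. At least 1.5-fold higher were 5 members, against 5.19% of all features. PAI3 and PBI2 lay so near this line that the count was 3, without either inhibitor, when the libraries were scaled by total counts or by the upper quartile or when the deposited RPKM values were used. The median of the log2 fold changes was 0.58 for the 9 members, 0.47 over the 7 hydrolases and 0.60 over the 2 inhibitors, beside 0.00 over all features. The middle 95% of all features lay between -0.63 and 0.89, so only AMS1 and APE1 lay outside it.

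PEP4 (YPL154C, minus strand of chromosome XVI from 259714 to 260931), the gene of the aspartyl protease that starts the activation of the other precursors, had 17465 counts in cdc55Δ and 11651 counts in WT. This is a log2 fold change of 0.75 (95% interval 0.72 to 0.79), or 1.68-fold, and 184 of the 5705 features had a higher one. PRB1 (YEL060C, minus strand of chromosome V from 40046 to 41953), which encodes the subtilisin-like serine protease proteinase B, had 3386 counts in cdc55Δ and 2748 counts in WT, a log2 fold change of 0.47 (0.40 to 0.54). The endoproteases thus both had more reads in cdc55Δ, and their log2 fold changes differed beyond counting error.

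The exopeptidase genes ranged from slightly lower in cdc55Δ to about 2-fold higher. PRC1 (YMR297W, plus strand of chromosome XIII from 861922 to 863520), the gene of the serine carboxypeptidase called carboxypeptidase Y, had 17186 counts in cdc55Δ and 16138 counts in WT, a log2 fold change of 0.26 (0.23 to 0.29). CPS1 (YJL172W, plus strand of chromosome X from 97737 to 99467) encodes the membrane-anchored zinc carboxypeptidase S. It had 6396 counts in cdc55Δ and 7580 counts in WT, a log2 fold change of -0.08 (-0.12 to -0.03), and 3725 features had a higher one. APE3 (YBR286W, plus strand of chromosome II from 774700 to 776313) had 34533 counts in cdc55Δ and 34990 counts in WT, a log2 fold change of 0.15 (0.13 to 0.17). APE3 thus had fewer raw counts in cdc55Δ, and its log2 fold change is above 0 only after scaling to the smaller total of that library. APE1 (YKL103C, minus strand of chromosome XI from 246138 to 247682), which encodes aminopeptidase I, a zinc enzyme that forms large cytoplasmic assemblies before its transport, had 2767 counts in cdc55Δ and 1473 counts in WT. Its log2 fold change was 1.08 (0.99 to 1.17), or 2.11-fold. The lower limit of its interval, 1.98-fold, lies under the 2-fold line, and 93 features had a higher value.

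AMS1 (YGL156W, plus strand of chromosome VII from 210416 to 213667) encodes an α-mannosidase that trims free oligosaccharides and is the only member hydrolase that acts on sugar chains. It had 1813 counts in cdc55Δ and 533 counts in WT, a log2 fold change of 1.93 (1.79 to 2.08), or 3.82-fold, and 18 of the 5705 features had a higher one. Its interval overlapped that of no other member. With 2 libraries, likeness of pattern means only a near log2 fold change. The mRNA genes nearest to AMS1 in this sense were FMP16 (1.95, from 235 counts in cdc55Δ and 68 in WT), SOL4 (1.91, from 524 counts in cdc55Δ and 156 in WT) and KDX1 (1.97, from 1182 counts in cdc55Δ and 339 in WT).

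**Figure D3:**
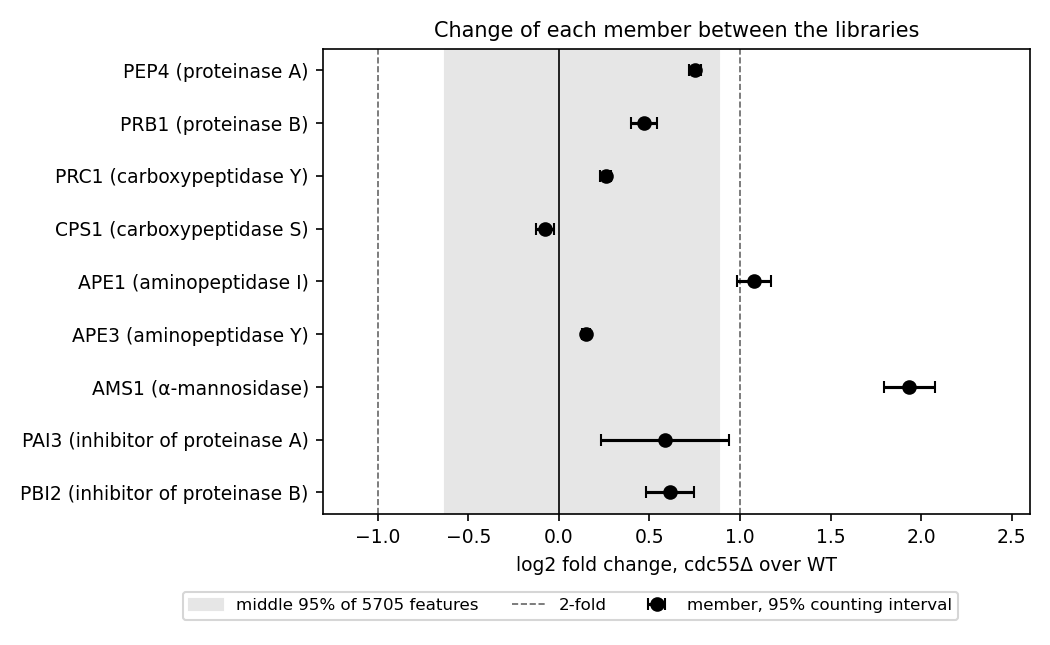
Log2 fold change of cdc55Δ over WT for each member, with bars for the 95% counting interval. The grey band is the middle 95% of 5705 features, from -0.63 to 0.89, and dashed lines mark 2-fold. AMS1 at 1.93 and APE1 at 1.08 lie right of the band and CPS1 at -0.08 lies left of 0.

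Among the inhibitors, PBI2 (YNL015W, plus strand of chromosome XIV from 605384 to 605611), whose product binds proteinase B and also takes part in vacuole fusion, had 1104 counts in cdc55Δ and 812 counts in WT. Its log2 fold change was 0.61 (0.48 to 0.74). PAI3 (YMR174C, minus strand of chromosome XIII from 610159 to 610365), whose product is unfolded until it binds proteinase A, had 159 counts in cdc55Δ and 119 counts in WT, a log2 fold change of 0.58 (0.23 to 0.94). PAI3 had the fewest reads of the members and the widest interval, and its fold change sits on the 1.5-fold line. Both genes are short, with coding lengths of 207 and 228 bases. The 214 other mRNA features of at most 300 bases that passed the minimum had a median log2 fold change of 0.04, with a middle 50% from -0.20 to 0.29, so the values of both inhibitors lay above that range, while the interval of PAI3 reached into it. The gene next to PAI3, DDR48, ends 177 bases away on the opposite strand and had 15047 counts in cdc55Δ and 8075 counts in WT, a log2 fold change of 1.07. Its part in the PAI3 counts was not tested. TFS1 (YLR178C), which is not among the 9 and encodes an inhibitor of carboxypeptidase Y, had 1219 counts in cdc55Δ and 775 counts in WT, a log2 fold change of 0.82 (0.69 to 0.95).

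Each inhibitor was set beside its protease within a library, as the ratio of counts per kilobase. For PAI3 per PEP4 the ratio was 0.054 in cdc55Δ (95% interval 0.046 to 0.063) and 0.060 in WT (0.050 to 0.072). The log2 difference was -0.17 (-0.51 to 0.18), an interval that includes 0 and reaches from a clearly lower to a slightly higher ratio in cdc55Δ. For PBI2 per PRB1 it was 2.73 in cdc55Δ (2.55 to 2.92) and 2.47 in WT (2.28 to 2.68), a log2 difference of 0.14 (-0.01 to 0.29), which also includes 0. In both libraries PBI2 thus had more counts per kilobase than its protease, and PAI3 far fewer than its own. The listed lengths are 207 bases for PAI3 and 228 for PBI2, against 1218 for PEP4 and 1908 for PRB1. An effect of such unlike lengths on the ratios was not tested, and the intervals do not cover it. TFS1 per PRC1 stood at 0.17 in cdc55Δ (0.16 to 0.18) and 0.12 in WT (0.11 to 0.13), a log2 difference of 0.56 (0.43 to 0.70), beyond counting error. Of the 36 pairs among the 9 members, 31 differed in log2 fold change beyond counting error. The same share over all pairs of features was not computed. The other 5 all involved an inhibitor: PAI3 with PEP4, PRB1, PRC1 and PBI2, and PBI2 with PRB1. PAI3 had the fewest reads of the members, with 159 counts in cdc55Δ and 119 in WT. A pair that did not differ is thus only one that these counts could not separate.

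**Figure D4:**
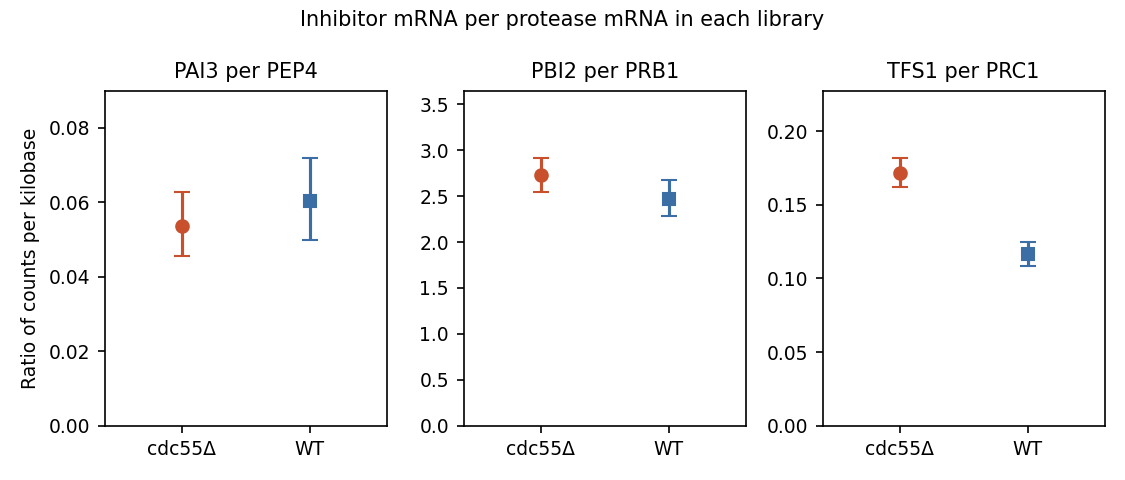
Ratio of counts per kilobase of each inhibitor to its protease in the cdc55Δ library (circles, left) and the WT library (squares, right), with 95% counting intervals and a vertical axis from 0 in each panel. The intervals overlap for PAI3 per PEP4 and for PBI2 per PRB1, and not for TFS1 per PRC1, at 0.17 in cdc55Δ and 0.12 in WT.

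The summed level of the 7 hydrolases was 1802 RPKM in cdc55Δ and 1453 RPKM in WT, a ratio of 1.24. The difference lay mostly in genes that were abundant in both libraries. PEP4 made up 53.8% of it, APE3 16.5% and PRC1 15.2%, whereas AMS1, with the largest fold change, made up 3.88%. PEP4 held 26.4% of the summed hydrolase level in cdc55Δ and 19.8% in WT. APE3 held 39.4% in cdc55Δ and 44.9% in WT, although its own level was slightly higher in cdc55Δ. The inhibitors PAI3 and PBI2 summed to 186 RPKM in cdc55Δ and 124 RPKM in WT.

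Other vacuolar genes were taken as lists. Of 11 other vacuolar hydrolases, all past the minimum, 2 were at least 2-fold higher in cdc55Δ and none at least 2-fold lower, against 1.91% and 1.03% of all features. In all, 7 were higher, against 50.4% of all features, and 4 lower, with a median log2 fold change of 0.33. SGA1, a glucoamylase known from sporulating cells, had 274 counts in cdc55Δ and 110 counts in WT, a log2 fold change of 1.48 (1.16 to 1.82). RNY1, the vacuolar ribonuclease of the T2 family, had 900 counts in cdc55Δ and 498 counts in WT, a log2 fold change of 1.02 (0.86 to 1.18), and was under 2-fold when the libraries were scaled by total counts or by the upper quartile. The lowest of this list was PHO8, the vacuolar alkaline phosphatase, at -0.59 (-0.65 to -0.53), from 3797 counts in cdc55Δ and 6422 counts in WT. Also in this list, ATG42, a relative of carboxypeptidase Y, and APE4, an aminopeptidase that is a further Cvt cargo, stood at 0.55 (0.48 to 0.62) and 0.49 (0.40 to 0.57). The other lower genes of the list were PPN2 at -0.50 (-0.59 to -0.41), PFF1 at -0.13 (-0.18 to -0.07) and DAP2 at -0.01 (-0.06 to 0.04).

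For the 12 genes of Cvt cargo transport the median log2 fold change was 0.40. Of these, 11 were higher in cdc55Δ, against 50.4% of all features, and 1 was at least 2-fold higher, against 1.91%. This was ATG34, a receptor that brings Ams1p to the vesicle during starvation, with 415 counts in cdc55Δ and 178 counts in WT, a log2 fold change of 1.39 (1.13 to 1.65). ATG19, the receptor of Ape1p and Ams1p in growing cells, stood at 0.54 (0.43 to 0.65), and ATG27, a membrane protein of the same pathway, was lowest at -0.17 (-0.25 to -0.09).

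The remaining lists had no gene 2-fold apart in either direction. Of all features, only 1.91% passed the 2-fold line upward in cdc55Δ and 1.03% downward. At those shares, lists this short would hold few such genes or none, so their absence does not set these lists apart. The 14 genes for sorting of vacuolar proteins had a median of 0.00, with PEP12, a syntaxin of the late endosome, highest at 0.42 and VAM7, a SNARE protein of vacuole fusion, lowest at -0.25. The 15 subunits of the V-ATPase, the proton pump that acidifies the vacuole, had a median of 0.03 and reached from -0.28 for VMA3 to 0.21 for VMA13. For 11 cytosolic and secretory proteases, which do not act in the vacuole, the median was -0.03, from -0.41 for STE13, a dipeptidyl aminopeptidase of the Golgi, to 0.49 for APE2, a cytosolic aminopeptidase.

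**Figure D5:**
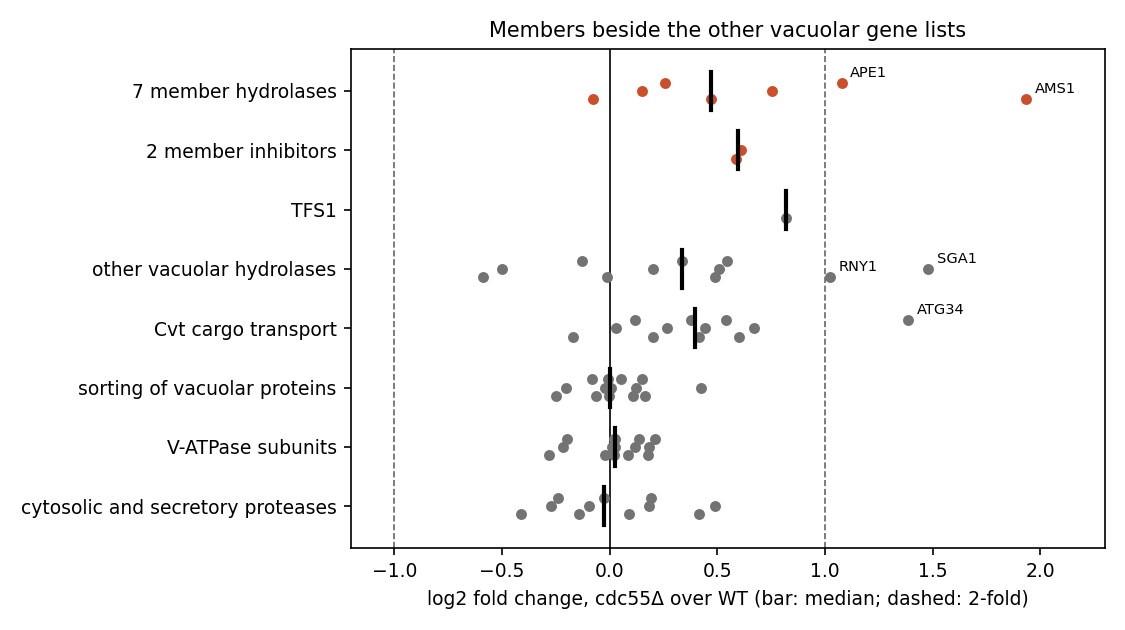
Log2 fold change of cdc55Δ over WT for every gene of each list, with 1 point per gene, a black bar for the median of the list and dashed lines at 2-fold. The 9 members are drawn in red. Genes past 2-fold are named, and all of them lie on the side of higher counts in cdc55Δ. The medians of vacuolar sorting, V-ATPase and non-vacuolar proteases lie at 0.00, 0.03 and -0.03.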

How the data were processed

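The deposited table of 6420 features holds 1 RNA-seq library each of BY4741 cdc55Δ and WT cells, taken at 6 h in YPD20. Total RNA was depleted of rRNA and made into directional libraries. Reads were aligned by the authors to S288C with hisat2, and the submitters' processing notes name featureCounts. The authors deposited whole-number counts per feature, which sum to 30133454 in cdc55Δ and 33233285 in WT. The strand setting and the handling of reads with several sites are not given in the sources used here. The deposited RPKM values were found to equal the count divided by the listed length in kilobases and by all counts in 1000000s. The deposited TPM values, scaled by the authors to a sum of 1000000 per library, were not used.

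Members were matched by the name in the table, and 6103 of 6106 features with an accession matched R64. The members' listed lengths are those of R64. No 100-base stretch of a member occurs elsewhere in that genome, and no annotated gene overlaps a member. Counts were scaled with TMM in edgeR 4.0.16 (R 4.3.3). Log2 fold changes with a prior count of 0.5 were then taken (Python 3.11.15, pandas 2.3.3, SciPy 1.17.1). The 95% intervals follow Clopper and Pearson, from the cdc55Δ part of the reads of each gene. For differences of log2 ratios they are Poisson approximations. They cover counting error only, and PCR copies are not independent molecules. A feature entered the background when its normalized counts averaged 50 or more. With 1 library per strain, edgeR's quasi-likelihood test had no residual degrees of freedom, so no p-value is given. The steps were tested on simulated data that held counting error alone, as the intervals assume. That test therefore cannot speak to variation between cultures or libraries.

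The members, lists and motifs were chosen with earlier results of these data known. Named are all 9 members, TFS1, CDC55, from each list the highest, the lowest and each gene at least 2-fold apart, and the 3 mRNA genes nearest to the member with the largest change. MFA1, DDR48, YKL102C, ATG42, APE4, PPN2, PFF1, DAP2 and ATG19 were named after their values were seen. Alternatives were DESeq2 size factors (DESeq2 1.42.0), total counts, upper-quartile scaling, TMM on mRNA only, prior counts of 0.125 and 5, minimums of 10, 200 and none, 1.5-fold and 3-fold thresholds, deposited RPKM ratios and the hydrolases without AMS1.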

Additional observations from a re-analysis of the deposited data

How the results depend on the processing

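No paired analysis was possible because each strain has 1 library. All 63 log2 fold changes of members under other scalings, prior counts or the deposited RPKM kept their sign, and the largest shift was 0.04. Of these, 5 fell below the lower limit of the gene's own counting interval. For APE3 they were 0.12 with total counts and the deposited RPKM, and 0.11 with the upper quartile. The upper quartile also gave 0.71 for PEP4 and 0.22 for PRC1. Each scaling shifts every gene by the same amount, and the deposited RPKM repeat the total-count scaling without a prior count. The value nearest 0 was -0.08 for CPS1, so a shift of 0.04 could not change a sign. The number of members at least 2-fold higher stayed at 2 under every scaling and count minimum run. Over the scalings, the number among all features ran from 100 with the upper quartile to 110 with DESeq2 size factors. With a 1.5-fold threshold 5 members were higher, among them 2 inhibitors, against 5.19% of all features. With a 3-fold threshold 1 member was higher, a hydrolase, against 38 of the 5705 features. In runs chosen after seeing the data, the 1.5-fold count was 3 members and 0 inhibitors with total counts, the upper quartile or the deposited RPKM, and 4 members and 1 inhibitor with TMM on mRNA only. The share of all features at 1.5-fold was not computed for these runs. The hydrolase median was 0.36 without AMS1. The inhibitor ratios stayed within their intervals with the deposited RPKM and with a prior count of 5. Within a library the RPKM ratio is the same ratio without the prior count. Both runs thus varied the prior count alone, and are no independent check. Of 11 other vacuolar hydrolases, 1 was at least 2-fold higher with total counts, the upper quartile or a minimum of 200, and 0 at 3-fold, where the Cvt transport genes also had 0. In the runs with total counts, the upper quartile and a minimum of 200, 103, 100 and 82 of all features were at least 2-fold higher. Among all features, 170 were 2-fold higher and 163 lower without a minimum, 94 were lower with a minimum of 10, 296 and 169 passed 1.5-fold, and 38 and 22 passed 3-fold, against 109 and 59. The number of features that enter changes with the minimum, so the counts at other minimums are not shares of the 5705 features. Among the 9 members PAI3 had the fewest reads, with 159 counts in cdc55Δ and 119 in WT.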

Other observations

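Grouped by their route to the vacuole, a grouping made after the values were seen, the Cvt cargo genes AMS1, APE1 and APE4 had log2 fold changes of 1.93, 1.08 and 0.49, with a median of 1.08. The secretory route hydrolases PEP4, PRB1, PRC1, APE3 and CPS1 had a median of 0.26. The lowest of the cargo genes, APE4, stood below the highest of the secretory genes, PEP4, at 0.75, so the groups overlap. The summed level of the 3 cargo genes was 138 RPKM in cdc55Δ and 77.5 RPKM in WT, a ratio of 1.78, and that of the 5 secretory genes was 1724 RPKM in cdc55Δ and 1419 RPKM in WT, a ratio of 1.22. No test of this difference was run, because 1 library per strain gives no replicate error.

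TFS1, the inhibitor with the largest log2 fold change, had 2 STRE and 2 PDS core matches in the 500 bases before its start codon. At least 2 STRE matches occurred in 8.13% of all windows, and at least 2 PDS core matches in 1.07%. Among the members, APE1 and PRC1 had 2 STRE matches each at log2 fold changes of 1.08 and 0.26, and PAI3 had 3 at 0.58. A relation between matches and log2 fold changes was not tested.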
